A study of Mus musculus with 14 samples.

Results

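A set of 10 genes of cone phototransduction was followed in RNA from the RPE (retinal pigment epithelium, the pigmented sheet that supports the photoreceptors) of P20 (postnatal day 20) rd1 mice. The rule names the genes and uses no measured value, though they were chosen with earlier results of these data known. They are the cone opsins Opn1sw and Opn1mw, cone arrestin Arr3, the cone transducin subunits Gnat2, Gnb3 and Gngt2, the cone phosphodiesterase subunits Pde6c and Pde6h, and the cone channel subunits Cnga3 and Cngb3. All 10 were among the 34452 mouse gene rows of the table and all 10 were among the 16289 genes with enough counts to be tested. The rd1 (FVB/N) mouse carries a loss-of-function allele of Pde6b, the rod phosphodiesterase, and loses its rods early in life. Every eye in both groups carried that allele and had received AAV-Best1-GFP, an adeno-associated virus with the 7M8 capsid that drives green fluorescent protein from the human Best1 promoter, which is active in the RPE. In each of 7 mice 1 eye had also received AAV-Best1-Nrf2, with the AAV8 capsid, which drives human Nrf2 (NFE2L2), a transcription factor of the oxidative stress response. The Nrf2 eye of every mouse therefore carried both an extra transgene and an extra vector, and the effects of these cannot be told apart. A library is called by its group and the number in its label, which was taken as the number of its mouse.

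Cones are the photoreceptors of daylight vision. Light changes the shape of a cone opsin, which activates cone transducin, a G protein of alpha, beta and gamma subunits. Transducin relieves the inhibition of phosphodiesterase, cyclic GMP is hydrolysed, and the cyclic nucleotide-gated channel of the outer segment closes. Arrestin then binds the phosphorylated opsin and ends its signal. Rods run the same cascade with their own gene for most of its steps. In retinitis pigmentosa the primary mutation is often in a rod gene, as in rd1, and cones are lost after the rods. These genes are not known for a role in the RPE. The protocol removed the neural retina before the RPE was lysed, and how much photoreceptor material stayed on each eyecup was not tested. In such bulk samples, fewer cells of a type and less RNA per cell cannot be told apart.

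The libraries held 16548349 to 50543008 estimated counts. Levels are given as CPM, counts scaled to a common library total. The 14 RPE marker genes summed to between 19860 and 41245 CPM in control eyes and between 24744 and 34415 CPM in Nrf2 eyes, and none was absent from all libraries, though Best1 itself was low at 1.80 CPM on average. The transcript of the Nrf2 vector did not follow the labels in every mouse. It was at 1163 CPM in the library labelled control 3 and also at 1163 CPM in the library labelled Nrf2 4, against 1.12 to 175 CPM in the other 6 control libraries and 4577 to 8711 CPM in the other 6 Nrf2 libraries. These libraries, of different mice and groups, were also the most alike of all 91 pairs of libraries, with a median absolute log2 ratio of 0.08 over 12044 genes against 0.14 for the next pair. Their counts differed by more than counting noise (median chi-square per gene 1.88, where counting alone gives 0.455). This cannot show that they came from different eyes, since separate libraries of the same RNA could also differ by that much. Both were kept. Whether a label was exchanged cannot be told from the labels, and every paired value of mice 3 and 4, including counts over all 7 mice and the sign-flip tests, rests on them. The library labelled Nrf2 2 was the shallowest and had 2.55% of its counts in pseudogenes, against 1.06% to 1.17% in the others. Results are also given without mice 3 and 4 where these libraries bear on them.

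All 10 cone genes had a lower fitted level in the Nrf2 eyes, as did 54.8% of all genes tested. Of the 10, Opn1sw and Gnat2 (2 genes) fell past an adjusted p of 0.05 (edgeR quasi-likelihood F-test with mouse as a block, Benjamini-Hochberg over all genes tested). Of all genes tested, 0.491% passed in this direction, 2.94% passed in the other and 3.43% in either, and no member rose. Of the 10, 4 (Opn1sw, Opn1mw, Arr3 and Pde6h) were lower in the Nrf2 eye of all 7 mice, which held for 2.97% of all genes, and 6 were lower in at least 6 mice, which held for 19.7%. At an unadjusted p under 0.05, 8 of the 10 were lower, against 7.49% of all genes, and the fitted log2 fold change was -1 or lower in 9, against 6.77%. The median log2 fold change of the 10 was -2.05, while that of all genes tested was -0.04. No member had groups that did not overlap (0 of 10, against 0.755% of all genes that were lower without overlap), and the library labelled control 3 lay within the range of the Nrf2 eyes for all 10 genes and control 6 for 9 of them. For Gnat2 only the libraries labelled Nrf2 4, at 18.3 CPM, and control 3, at 17.2 CPM, overlapped. Apart from them, its lowest control eye was at 27.9 CPM (control 6) and its highest Nrf2 eye at 15.1 CPM (Nrf2 2). Without a block for mouse, 6 of the 10 passed (Opn1sw, Opn1mw, Arr3, Gnat2, Pde6h and Gngt2), where 1.37% of all genes did so in this direction. The same 6 passed with DESeq2 (4.33% of all genes), and 9 passed with limma voom (6.18%). With edgeR, 3 passed without mouse 4 (6.25%), 1 without mouse 3 (0.092%) and 1 without both of these mice (1.53%). Leaving out only the libraries labelled control 3 and Nrf2 4, in an unpaired fit chosen after seeing the data, 8 passed (2.29%).

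**Figure D1:**
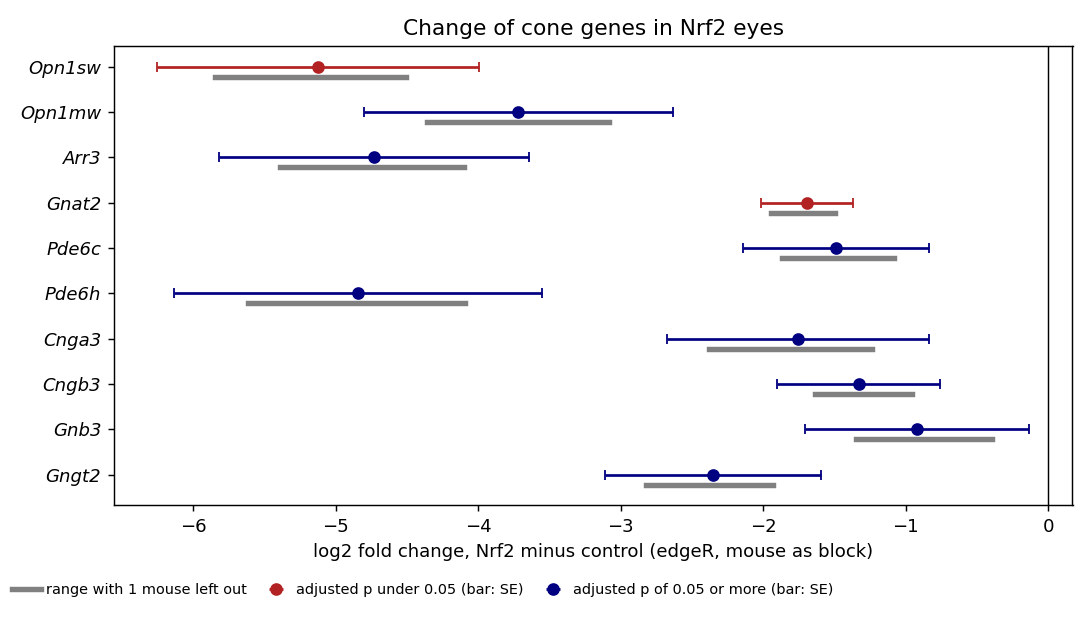
Log2 fold change of each cone gene in Nrf2 eyes relative to control eyes of the same 7 mice. Points are edgeR estimates with their standard error, red where the adjusted p was under 0.05, and grey bars span the estimates with 1 mouse left out. All points lie below 0, and Opn1sw, Pde6h and Arr3 lie farthest from it, at -5.12, -4.84 and -4.73.

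Opn1sw, the short-wavelength opsin, lies on the minus strand of chromosome 6 (GRCm38 chr6:29376671-29388468). Opn1mw, the middle-wavelength opsin, lies on the plus strand of the X chromosome (chrX:74127464-74150760), and Arr3 lies on the plus strand of the same chromosome (chrX:100605497-100618493). The 250 bases before the RefSeq starts of Opn1sw and Arr3 are shown (that of Opn1sw lies inside the gene span above, since 1 annotated isoform begins farther upstream) because these were the opsin and the arrestin with the largest differences. Capitals mark TAATC, the core letters bound by the photoreceptor factor Crx and its relative Otx2.
Opn1sw promoter, minus strand, chr6:29380514-29380763: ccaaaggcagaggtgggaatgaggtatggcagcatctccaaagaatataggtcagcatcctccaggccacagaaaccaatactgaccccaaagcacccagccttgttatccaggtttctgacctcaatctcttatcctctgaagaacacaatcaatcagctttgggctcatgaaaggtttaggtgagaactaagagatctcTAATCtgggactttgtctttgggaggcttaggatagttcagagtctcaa
Arr3 promoter, plus strand, chrX:100605247-100605496: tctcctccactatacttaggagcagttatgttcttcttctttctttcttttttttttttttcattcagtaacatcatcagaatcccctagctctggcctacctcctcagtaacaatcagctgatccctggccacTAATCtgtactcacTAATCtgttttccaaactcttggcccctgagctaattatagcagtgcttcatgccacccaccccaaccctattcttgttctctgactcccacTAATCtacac
Both sequences are from RefSeq (GRCm38.p6), whose promoters matched 6 of the 10 genes. TAATC on either strand was in 3 of those 6, with its first base 49 bases before the start in Opn1sw, 116, 102 and 10 bases before it in Arr3, and 18 bases before it in Gnat2. The same letters were in 19.8% of 32851 promoters of this length, or 22.3% of 27025 genes. The antioxidant response core TGACNNNGC, the letters bound by Nrf2 with small Maf proteins, was in the Gnat2 promoter alone among the 6 and in 10.2% of all promoters, or 11.5% of genes. Both motifs were chosen with the results known, and a match is a description of letters only. Promoters of Pde6c, Cngb3, Gnb3 and Gngt2 were not analysed here.

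Opn1sw was at 152, 33.9, 4.90, 149.8, 132, 6.69 and 139 CPM in control eyes 1 to 7. In the Nrf2 eyes of the same mice it was at 1.24, 13.5, 0.186, 3.64, 0.466, 2.97 and 0.554 CPM. Control eyes 1, 4, 5 and 7 stood far above the rest, and the groups met only where Nrf2 2 exceeded control 3 and control 6. Its log2 fold change of -5.12 ± 1.13 (SE, n = 7 mice) had an adjusted p of 0.0470, and the paired difference was negative in all 7 mice (exact two-sided sign-flip permutation test, p = 0.0156, the smallest that 7 pairs can give). The adjusted p rose to 0.161, 0.125, 0.114 and 0.139 without mouse 1, 3, 5 or 7, with the log2 fold change between -5.85 and -4.51 over the 7 fits. It was 0.109 without mice 3 and 4 together.

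Opn1mw spanned 1.15 to 133 CPM in control eyes (median 8.22) and 0.435 to 5.14 CPM in Nrf2 eyes (median 0.869). The paired differences were all negative, between -6.61 (mouse 4, with the library labelled Nrf2 4) and -0.18 (mouse 3, with the library labelled control 3) on the log2 scale, and 6 of the 7 Nrf2 eyes lay below the lowest control eye. The exception was Nrf2 2, at 5.14 CPM. Nrf2 4, at 1.144 CPM, was nearly level with the lowest control eye, control 3, at 1.149 CPM. A log2 fold change of -3.72 ± 1.09 (SE) was fitted, with an adjusted p of 0.116 with the mouse block and 0.0115 without it. The exact sign-flip p was 0.0156. Without mice 3 and 4 the estimate was -3.76, at an adjusted p of 0.0909.

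The balance between the opsins also varied between libraries. Mouse cones often make both, in proportions that follow a dorsal to ventral gradient across the retina. Of the counts of both opsins, Opn1sw held 53.0% to 94.4% in control eyes (median 77.2%) and 17.6% to 77.3% in Nrf2 eyes (median 62.8%). Control 4 had a share of 53.0% (95% Wilson interval 51.9% to 54.1%) and control 7 one of 94.4% (93.8% to 94.98%), so control eyes differed by more than counting error. Nrf2 3, at 17.6% (8.35% to 33.5%), was the lowest of all 14 but rested on few counts, as its interval shows. These intervals cover counting error only. Scaled per kilobase of coding sequence, Opn1sw stood at 1.27 to 19.1 times Opn1mw in control eyes and 0.241 to 3.82 times in Nrf2 eyes. Per kilobase of the longest coding transcript it stood at 0.577 to 8.68 times in control eyes and 0.110 to 1.74 times in Nrf2 eyes. Which opsin was higher thus depended on the length used in some libraries.

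Arr3, which shuts off the light-activated opsin, had the widest range of the 10, with its highest library at 1285 times its lowest. Control eyes 1 to 7 held 242, 36.4, 4.26, 282, 100.1, 13.2 and 38.9 CPM. Nrf2 eyes 1 to 7 held 1.397, 18.2, 0.807, 3.23, 0.219, 2.41 and 0.871 CPM. Every Nrf2 eye was below its own control eye and 6 were below the lowest control eye, control 3, while Nrf2 2 again reached into the control range. For Arr3 the log2 fold change was -4.73 ± 1.09 (SE), and its adjusted p of 0.0543 fell just short of the threshold (exact sign-flip p = 0.0156). It was 0.0478 without mouse 2 or 4 and 0.0145 without the mouse block, but 0.164, 0.0979, 0.109, 0.0774 and 0.181 without mouse 1, 3, 5, 6 or 7 and 0.0832 without mice 3 and 4 together.

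**Figure D2:**
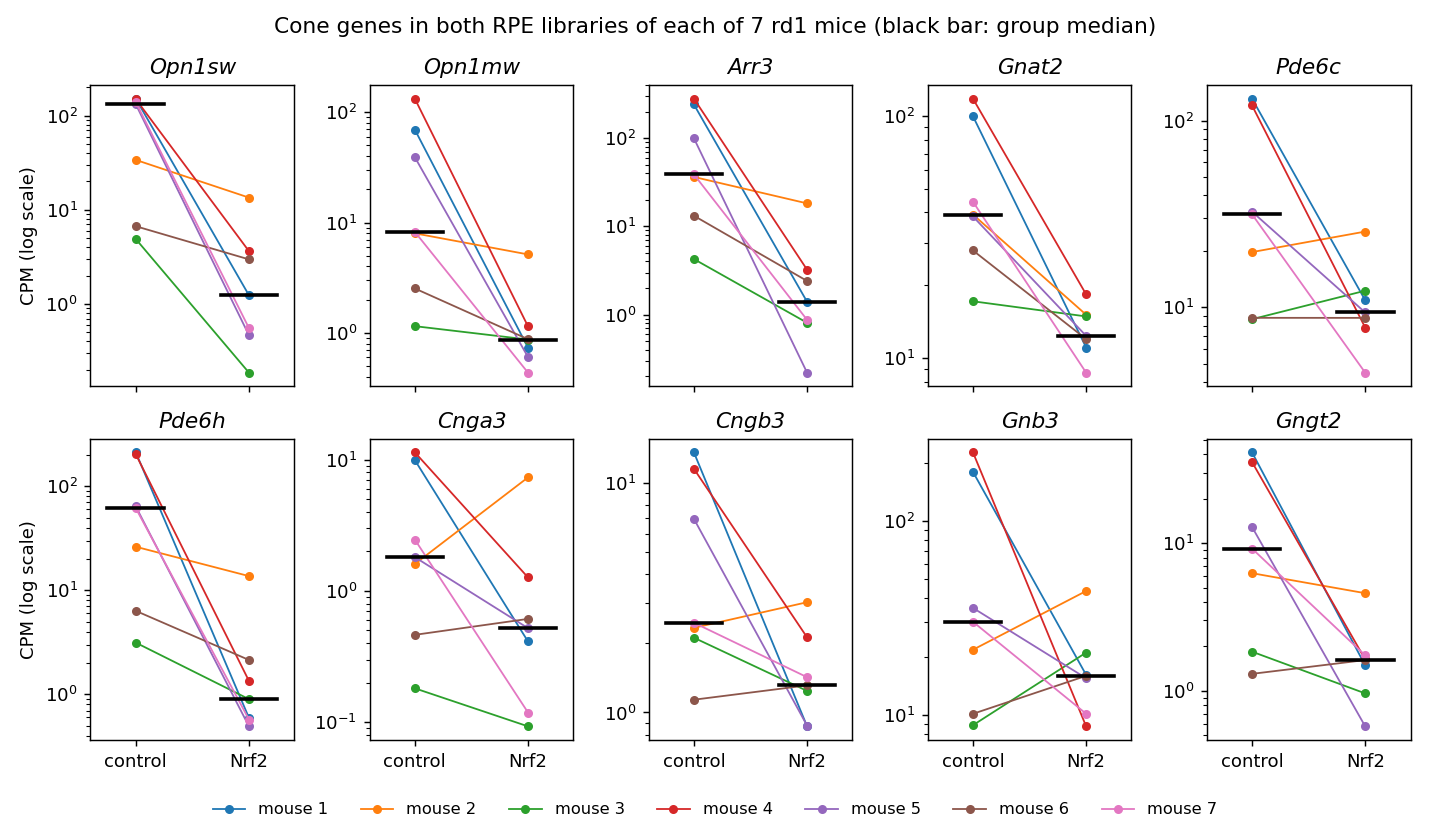
Level of each cone gene in every library, on a log axis in CPM, with control and Nrf2 eyes of a mouse joined by a line and a black bar at each group median. Opn1sw, Opn1mw, Arr3 and Pde6h run downwards from control to Nrf2 in all 7 mice, whereas Gnb3 does so in 4 and Pde6c, Cnga3 and Cngb3 in 5.

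Of the 3 transducin subunits, Gnat2 alone passed the threshold. Gnat2 (chr3:108092789-108101432, plus strand) encodes the alpha subunit, whose loss in people causes achromatopsia, an absence of cone vision. It was at 100.02, 39.2, 17.2, 118, 38.5, 27.9 and 44.3 CPM in control eyes 1 to 7. The Nrf2 eyes were at 11.1, 15.1, 14.9, 18.3, 12.4, 11.98 and 8.71 CPM, a narrow band in which only Nrf2 4 exceeded the lowest control eye, control 3. Gnat2 had a log2 fold change of -1.69 ± 0.32 (SE) and the lowest adjusted p of the 10, at 0.0294. It was lower in 6 of 7 mice (exact sign-flip p = 0.0312), and in mouse 3 the eyes were level once libraries were scaled. The call was lost without mouse 1, 2, 5, 6 or 7, at adjusted p of 0.0924, 0.0609, 0.0842, 0.0675 and 0.111, and was kept at 0.0158 without mice 3 and 4 together.

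Gnb3 (chr6:124834240-124840275, minus strand) encodes the beta subunit of cone transducin and is also used by ON bipolar cells of the inner retina. Control eyes ranged from 8.86 to 226 CPM (median 30.2) and Nrf2 eyes from 8.74 to 43.6 CPM (median 15.9). The groups overlapped, with 1 Nrf2 eye below the lowest control eye and 2 control eyes above the highest Nrf2 eye, and Gnb3 was lower in the Nrf2 eye of 4 mice and higher in the other 3. That lowest Nrf2 eye was Nrf2 4, at 8.74 CPM, nearly level with control 3, at 8.86 CPM. With a log2 fold change of -0.92 ± 0.79 (SE), Gnb3 did not pass (adjusted p = 0.5679, exact sign-flip p = 0.281), and the estimate came to -0.39 without mouse 4.

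Gngt2 (chr11:95837216-95845734, plus strand), the gamma subunit, ranged from 1.30 to 41.4 CPM in control eyes (median 9.21) and from 0.575 to 4.59 CPM in Nrf2 eyes (median 1.62). The highest 5 control eyes stood above the highest Nrf2 eye, and control 3 and control 6 did not. Its estimate was -2.35 ± 0.76 on the log2 scale (SE), at an adjusted p of 0.147, with 6 of 7 mice lower (exact sign-flip p = 0.0312). Without the mouse block the adjusted p was 0.0191. Gngt2 is also made by some myeloid cells, whose 8 marker genes summed to 99.3 to 290 CPM in control eyes and 100.1 to 337 CPM in Nrf2 eyes, and their part in the level of Gngt2 was not tested.

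Neither phosphodiesterase subunit passed the threshold. Pde6h (chr6:136923832-136968865, plus strand) encodes the inhibitory gamma subunit. It was at 212, 26.3, 3.14, 204, 64.2, 6.36 and 61.8 CPM in control eyes and at 0.595, 13.7, 0.9002, 1.35, 0.493, 2.14 and 0.574 CPM in Nrf2 eyes 1 to 7. As for Arr3, all 7 mice were lower in the Nrf2 eye and only Nrf2 2 reached the control range. Pde6h had a log2 fold change of -4.84 ± 1.29 (SE) and an exact sign-flip p of 0.0156. Its adjusted p was 0.0892, or 0.0125 when mouse was left out as a block. With 1 mouse left out it ran from 0.0663 (without mouse 2) to 0.256 (without mouse 7). Without mice 3 and 4 together the estimate was -5.00, at an adjusted p of 0.105.

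Pde6c (chr19:38132781-38183958, plus strand) encodes the catalytic alpha' subunit that Pde6h inhibits. It ranged from 8.65 to 132 CPM in control eyes (median 31.6) and from 4.47 to 25.5 CPM in Nrf2 eyes (median 9.40). The groups overlapped, with only 2 Nrf2 eyes below the lowest control eye, and mice 2 and 3 were higher in the Nrf2 eye. The fitted log2 difference of -1.49 ± 0.65 (SE) did not pass, at an adjusted p of 0.274 (exact sign-flip p = 0.109).

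Neither channel gene passed the threshold. Cnga3 (chr1:37214434-37263384, plus strand), the pore-forming subunit, ranged from 0.181 to 11.3 CPM in control eyes (median 1.81) and from 0.0931 to 7.31 CPM in Nrf2 eyes (median 0.520). The lowest value, in Nrf2 3, was 3 counts, and the highest of the Nrf2 eyes was Nrf2 2, where Cnga3 exceeded 5 of the control eyes. Cnga3 had a fitted log2 difference of -1.75 ± 0.92 (SE), at an adjusted p of 0.356, with 5 of 7 mice lower (exact sign-flip p = 0.156). Cngb3 (chr4:19280850-19510623, plus strand), the modulatory subunit, ranged from 1.14 to 13.6 CPM in control eyes (median 2.46) and from 0.870 to 3.02 CPM in Nrf2 eyes (median 1.31). The highest 3 control eyes were above every Nrf2 eye and the other 4 lay among them. For Cngb3 the fitted difference was -1.33 ± 0.57 (SE), at an adjusted p of 0.265, with 5 of 7 mice lower (exact sign-flip p = 0.0625).

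Across libraries the 10 genes varied together. Over the 45 pairs of members the Pearson correlation of log2 CPM ran from 0.651 (Opn1sw with Gnb3) to 0.978 (Arr3 with Pde6h), with a median of 0.874 over 14 libraries. Within the 7 control libraries the median was 0.941 and within the 7 Nrf2 libraries it was 0.668, with a lowest value of -0.12. These are descriptions over libraries that share mice, treatment and scaling. The summed level of the 10 genes was 1292 CPM in control 4, 1151 in control 1, 464 in control 5, 369 in control 7, 195 in control 2, 78.5 in control 6 and 52.3 in control 3. In Nrf2 eyes the sum ran from 29.0 CPM (Nrf2 7) to 149.7 CPM (Nrf2 2), with a median of 48.6 CPM. The control libraries thus differed among themselves by more than the medians of the groups did, and control 3 and control 6 lay within the range of the Nrf2 eyes.

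**Figure D3:**
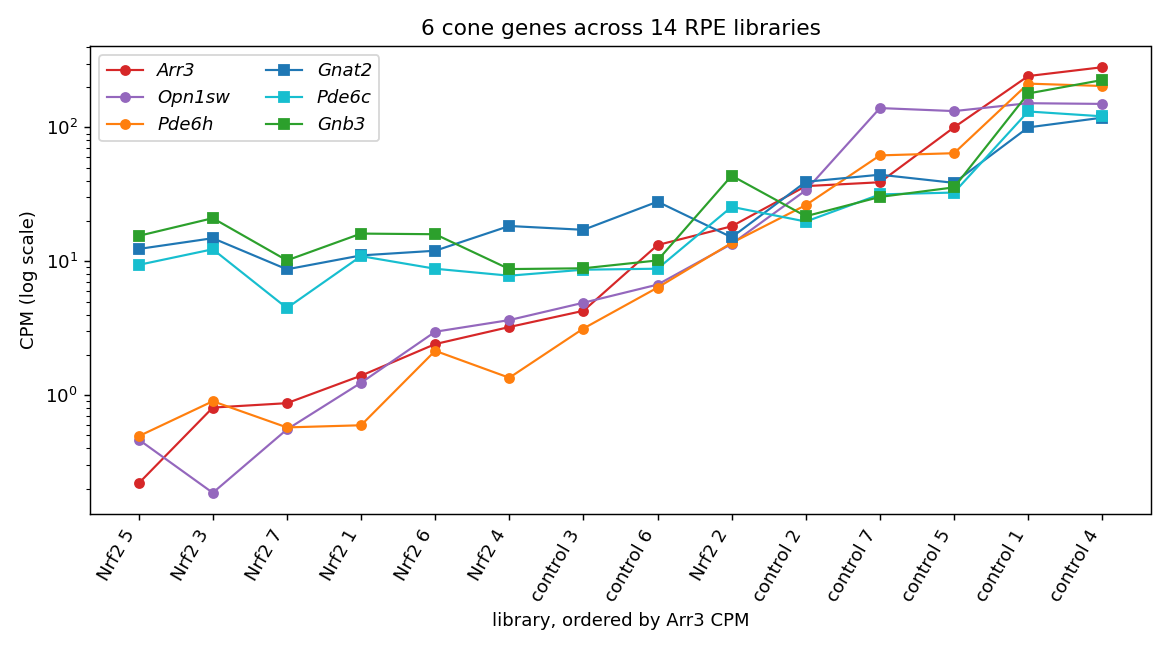
Level of 6 of the cone genes in each of the 14 libraries, in CPM on a log axis, with 1 point per library and libraries in order of their Arr3 level. Opn1sw, Arr3 and Pde6h lie below 5 CPM in the 7 libraries at the left, where Gnat2, Pde6c and Gnb3 stay between 4.47 and 20.98 CPM.

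The members reached different low levels. In the Nrf2 eyes other than Nrf2 2, Opn1sw, Arr3 and Pde6h were all below 5 CPM, while Gnat2, Pde6c and Gnb3 remained between 4.47 and 20.98 CPM. This division was seen in the values and then described. The highest library stood at 1285 times the lowest for Arr3, 814 times for Opn1sw, 431 times for Pde6h and 305 times for Opn1mw. The same ratio was 29.4 for Pde6c, 25.9 for Gnb3, 15.6 for Cngb3 and 13.6 for Gnat2. Cnga3, at 122, and Gngt2, at 71.9, lay between, so the ratios did not fall into separate classes. Gnat2, Pde6c and Gnb3 made up 8.30% to 35.5%, 7.02% to 16.5% and 7.68% to 17.5% of the members' counts in control eyes. In Nrf2 eyes they made up 10.1% to 37.2%, 15.4% to 24.4% and 17.7% to 39.4%.

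Levels of different genes were compared per kilobase, with the longest coding transcript and the longest coding sequence of any isoform as alternative lengths. In control eyes Opn1sw ranked first by transcript length, at a median of 54.9 CPM per kilobase (2.03 to 62.9), and second by coding length. Pde6h ranked first by coding length and sixth by transcript length, since its longest transcript, of 5940 bases, has a very short coding sequence. Cnga3 and Cngb3 were the lowest pair by both lengths, at medians of 0.509 and 0.523 CPM per kilobase of transcript. In Nrf2 eyes Gnb3 and Gnat2 ranked first and second by both lengths, at medians of 8.62 (4.74 to 23.6) and 6.01 (4.24 to 8.93) CPM per kilobase of transcript, and Opn1sw ranked seventh. Neighbours in each order had overlapping ranges.

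The remaining steps of the cascade were described by a further list. Of 16 other phototransduction genes, which cover guanylate cyclases and their activators, recoverin, opsin kinase, the RGS9 complex and chaperones, none passed the threshold in either direction (edgeR), with 4 lower and 1 higher at an unadjusted p under 0.05, 4 lower by DESeq2 and 5 lower and 1 higher by limma voom. Their median log2 fold change was -1.37, against -0.04 over all genes, and -1.09 without mice 3 and 4. Of these, 4 were lower in all 7 mice and are named for that reason after their values were seen. Aipl1, the chaperone needed to fold phosphodiesterase, stood at -4.88 ± 1.13 on the log2 scale, with its SE, at an adjusted p of 0.0559. Rcvrn, the calcium sensor recoverin, stood at -4.25 ± 1.11 (adjusted p = 0.0840). Guca1a, an activator of guanylate cyclase, had -1.70 ± 0.40 (adjusted p = 0.0566), and its target Gucy2e had -1.41 ± 0.45 (adjusted p = 0.147). Unc119, Gnb5 and Pde6d, which many cell types make, held most of the list's counts and had log2 fold changes of 0.21, 0.06 and -0.02, so the list's summed level, 343 to 907 CPM in control and 405 to 534 CPM in Nrf2 eyes, mainly reports those genes.

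Among 8 further cone-related genes 2 fell, and the median log2 fold change of the list was -1.20. Nxnl1, which encodes rod-derived cone viability factor, was at 9.86 to 34.9 CPM in control eyes and 2.00 to 10.05 CPM in Nrf2 eyes, and fell by 2.27 on the log2 scale (SE 0.28, adjusted p = 0.00936, lower in 7 of 7 mice). Fam19a3, which encodes a small secreted protein, was at 17.9 to 109 CPM and 6.43 to 24.3 CPM and fell by 2.21 (SE 0.26, adjusted p = 0.00936, lower in 7 of 7 mice). Thrb and Rxrg encode nuclear receptors that shape opsin choice. Thrb was at 44.9 ± 9.89 CPM (SD, n = 7) in control and 37.9 ± 5.22 CPM in Nrf2 eyes, at a log2 difference of -0.09 (adjusted p = 0.770), and Rxrg was at 0.76 on the same scale (adjusted p = 0.462). Neither passed. The calls of Nxnl1 and Fam19a3 held in all 7 fits with 1 mouse left out, at adjusted p up to 0.0383.

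Rod genes were also lower in fit, though none passed. Of 14 rod genes 13 were tested, and all 13 had a fitted level below control, as did 54.8% of all genes tested. Their median log2 fold change was -1.27, with 0 past the threshold in edgeR, 5 at an unadjusted p under 0.05, 5 by DESeq2 and 6 by voom. To ask whether cone genes differed from their rod counterparts, 7 pairs of equivalent genes were compared as the paired change of the cone gene minus that of the rod gene. The pairs were chosen after the values were seen. Pde6h against Pde6g gave a mean of -1.65 ± 1.01 log2 units (SD, n = 7), with the cone gene lower by more in 6 of 7 mice (exact sign-flip p = 0.0312, adjusted over 7 pairs p = 0.109). Arr3 against Sag gave -1.004 ± 0.84, also in 6 of 7 mice, with the same exact p of 0.0312 and adjusted p of 0.109. The other 5 pairs had exact p-values from 0.109 (Gngt2 against Gngt1, at 0.78 ± 1.03, the only pair in which the rod gene was lower by more) to 0.422 (Gnat2 against Gnat1, at -0.31 ± 0.98). None of the 7 differences passed after adjustment. Without mice 3 and 4, Pde6h against Pde6g stood at -1.84 ± 0.66 and Arr3 against Sag at -1.14 ± 0.80 (SD, n = 5), each negative in 5 of 5 mice, where the exact sign-flip test cannot give a p below 0.0625. Cngb3 against Cngb1 stood at -0.65 ± 1.35 and Pde6c against Pde6a at -0.58 ± 1.13, each negative in 4 of 5 mice. Cnga3 against Cnga1 (-0.41 ± 1.74) and Gnat2 against Gnat1 (-0.40 ± 1.12) were negative in 3 of 5. Gngt2 against Gngt1 stood at 1.10 ± 1.07 and was negative in 1 of 5. These values were added after seeing the data.

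**Figure D4:**
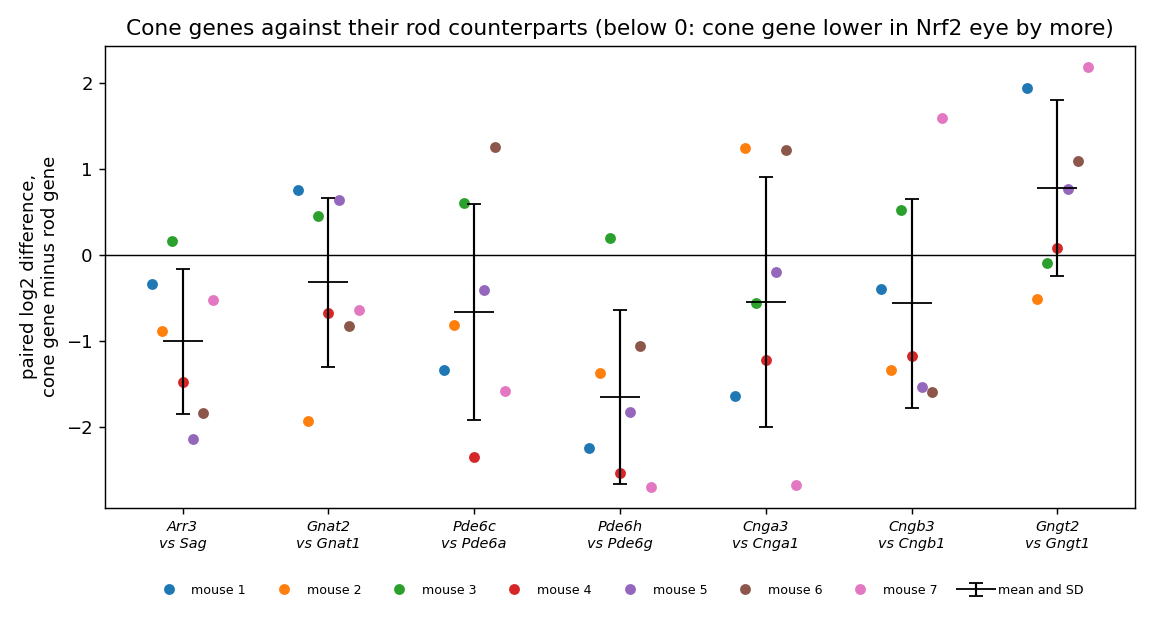
Difference between the paired log2 change of each cone gene and that of its rod counterpart, for 7 gene pairs, 1 point per mouse with the mean and SD. Arr3 against Sag and Pde6h against Pde6g have 6 of 7 points below 0, and the other pairs scatter on both sides.

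Markers of other retinal cells are given beside the cone genes, and their part in the cone result was not tested. Rod markers summed to 226 to 870 CPM in control eyes and 122 to 244 CPM in Nrf2 eyes, and the sum was lower in the Nrf2 eye of 6 mice, though Slc24a1, which made up 57.1% of it, had a log2 fold change of -0.12 (adjusted p = 0.892). Of 12 genes shared by rods and cones, Rbp3, the retinoid carrier between photoreceptors and RPE, fell by 3.19 on the log2 scale (SE 0.60, adjusted p = 0.0275) and Tulp1, needed for transport to the outer segment, fell by 1.63 (SE 0.25, adjusted p = 0.0146). Rom1, a disc rim protein, rose by 1.97 (SE 0.36, adjusted p = 0.0252). With 1 mouse left out, Rbp3 passed in 3 of 7 fits (lost without mouse 2, 3, 5 or 7, at adjusted p up to 0.103), Tulp1 in 4 (lost without mouse 3, 5 or 7, up to 0.0569) and Rom1 in 1 (kept only without mouse 4, up to 0.0960). The median of these 12 was -2.58. At an unadjusted p under 0.05, 8 were lower and 2 higher, with the same counts by DESeq2 and by voom. Their summed level did not follow that median. It was 277 to 1195 CPM in control eyes (median 476) and 334 to 836 CPM in Nrf2 eyes (median 652). The sum was lower in the Nrf2 eye of only 2 mice. Rom1 and Abca4 held most of it, and Abca4 had a log2 fold change of 0.20 (adjusted p = 0.618). Of 20 inner retina markers 17 were tested and 0 passed in edgeR, with 3 lower and 1 higher at an unadjusted p under 0.05, 4 lower and 1 higher by DESeq2, 6 lower and 2 higher by voom, and a median of -0.99. Their sum, 1026 to 3632 CPM in control and 1827 to 2630 CPM in Nrf2 eyes, was mostly Trpm1 (55.5%), which pigment cells also make, followed by Glul and Slc6a9. No marker of any of these lists was at 0 in all 14 libraries. The 14 RPE markers had a median log2 fold change of -0.04, with 1, Rpe65, past the threshold at -2.17 (SE 0.37, adjusted p = 0.0199), and it passed in 2 of 7 fits with 1 mouse left out (lost without mouse 1, 2, 3, 5 or 6, at adjusted p up to 0.0650). Myeloid, endothelial, fibroblast and lens markers had medians of 0.80, -0.21, 0.31 and 0.13, and none of them passed in edgeR, with 1 myeloid gene lower and 1 higher at an unadjusted p under 0.05 and 1 lower and 2 higher by DESeq2. Without mice 3 and 4, whose libraries stood apart, the medians were -1.13 for rod, -2.99 for shared photoreceptor and -0.89 for inner retina markers. In that fit, added after seeing the data, 0 of 13 rod markers passed (edgeR), with 5 lower at an unadjusted p under 0.05, Tulp1 fell, Rom1 and Rdh12 rose, Rbp3 no longer passed, and Glul rose among inner retina markers.

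The genes whose pattern was most like that of the 10 included several rod genes. Over 14 libraries and 12031 genes with a mean of at least 5 CPM, the genes with the highest Pearson r with the members' mean z-scored log2 CPM included Gngt1 (0.979), Pde6g (0.978), Rtbdn (0.971), Ptprn (0.966), Slc1a7 (0.966), Sag (0.966), Slc17a7 (0.965), Aipl1 (0.959) and Asic4 (0.952). Within the 7 control libraries alone, the first included Slc17a7 (0.996), Pde6g (0.996), Rcvrn (0.995) and Rbp3 (0.993), followed by Prph2, Sag, Asic4, Prrt2 and Gngt1. Gngt1, Pde6g and Sag are rod genes, and Slc17a7 encodes the glutamate transporter of photoreceptor synaptic vesicles. For listed genes at that mean level, the median r over 14 libraries was 0.943 for 7 rod markers and 0.921 for 9 shared photoreceptor markers. It was 0.763 for 4 other cone genes and 0.485 for 13 other phototransduction genes. For 15 inner retina markers it was 0.714, and for 13 RPE markers 0.095. The points share mice, treatment and scaling, and the values are descriptions.

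Of the 10 genes, 3 share exon bases with a gene on the opposite strand, and whether the counting used strand is not given in the sources used here. Opn1sw shares 397 bases with Calu, which was at 311 ± 60.6 CPM (SD, n = 7) in control and 314 ± 43.0 CPM in Nrf2 eyes (adjusted p = 0.574). Pde6h shares 136 bases with Arhgdib, at 211 ± 108 and 127.7 ± 78.9 CPM (adjusted p = 0.503), and Gngt2 shares 234 bases with Abi3, at 4.31 ± 2.01 and 3.35 ± 1.28 CPM (adjusted p = 0.847). The values of these 3 members are less certain for that reason.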

How the data were processed

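RPE of 7 rd1 mice at P20 was sequenced, 1 library per eye. The labels give 1 pair more than the study's methods, and all were used. Which pair the methods leave out is not given in the sources used here. RNA was amplified by the authors with a kit for low input. Reads were checked (FastQC), aligned to mm10 with Ensembl 91 annotation (STAR) and, in parallel, quantified with Salmon (0.9.1 in the submitters' processing notes). The authors deposited 1 table of estimated counts, in whole numbers and without normalization, and its origin in Salmon is inferred. The labels mention more than 1 sequencing run without assigning libraries, so run and group cannot be told apart. Of 34452 mouse gene rows, 34401 matched GENCODE M21 (GRCm38), and 0 columns were unmapped.

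Counts were tested in R 4.3.3 with edgeR 4.0.16 (quasi-likelihood, TMM, filterByExpr with a minimum count of 10), in a model of treatment blocked by mouse. P-values were Benjamini-Hochberg adjusted over 16289 mouse genes, and SE is the log2 fold change over the root of F. The design left 6 residual degrees of freedom and 2.68 from the prior. Single paired differences of log2 CPM (TMM, prior count 2) had an exact two-sided sign-flip test over 128 patterns, with p-values not adjusted unless stated. Scripts were tested on simulated data. The labels number the libraries within each group and do not name the animal. Eyes of the same number were taken as those of 1 mouse, because the study paired the eyes of each mouse. Deviations from the group means correlated at 0.03, 0.07, 0.10, -0.44, 0.41, -0.26 and 0.19 between the eyes of mice 1 to 7 (12025 genes). DESeq2 1.42.0, limma 3.58.1 (voom) and other settings were alternatives. In all 91 pairs of libraries the median chi-square per gene was 1.88 or more, where counting alone gives 0.455. The spread of each member between mice was not compared with counting error.

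The members and lists were chosen with earlier results of these data known. Named genes were the 10 members, pathway and cone genes past the threshold, up to 4 genes of the highest CPM per retinal list, and the 10 most alike, and the text marks others as chosen after their values were seen, as are the shared photoreceptor genes past the threshold, Rpe65, Thrb, Rxrg and the overlapping genes. Values of some genes in these lists are not reported here.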

Additional observations from a re-analysis of the deposited data

Results flagged for a closer look

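In 30 groups of 7 eyes (the levels of the 10 members in each group and their paired differences), 1 eye stood apart by Dixon's test, where chance flags about 1 in 20 groups. It was Nrf2 2 for Opn1mw, at a log2 CPM of 2.26, with the next Nrf2 eye at 0.25. The gap was 0.628 of the group's range. The same library was the shallowest and had the highest share of pseudogene counts, and the part of these in the value was not tested.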

How the results depend on the processing

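All 180 alternative estimates of the members' log2 fold changes were below 0, from -6.41 to -0.39, while the number of members past the threshold depended on the test. Those listed for an adjusted p under 0.01 repeat the reported fit. With 559 genes and 2 members as reported, removing the mouse block gave 1100 genes and 6 members, DESeq2 gave 1943 genes and 6 members, and voom with sample quality weights gave 2592 genes and 9 members (all but Gnb3). Upper-quartile normalization kept 1 member (Gnat2), no filter on low counts gave 347 genes, and an adjusted p under 0.01 gave 56 genes and 0 members in edgeR, where 8 had an unadjusted p under 0.05. Leaving out each mouse in turn gave 111 (without mouse 7) to 1998 genes (without mouse 4) and 0 to 3 members, with 0 without mouse 1, 5 or 7. Leaving out mice 3 and 4 together kept 1 member (Gnat2). In that edgeR fit Gngt2 stood at -2.28 (adjusted p = 0.189), Pde6c at -1.48 (adjusted p = 0.211) and Cngb3 at -1.29 (adjusted p = 0.387). Cnga3 stood at -1.59 (adjusted p = 0.530) and Gnb3 at -0.80 (adjusted p = 0.533). A fit without the block that left out the libraries labelled control 3 and Nrf2 4, chosen after seeing the data, gave 1476 genes and 8 members. The causes of these shifts were not tested. The blocked fit was the one reported because the eyes of a mouse share the animal, and the exact sign-flip p of Gnat2 and Gngt2 rose to 0.0625 in the fits that left out 1 of 6 of the mice. At Nrf2 levels near 3 counts, as for Cnga3 in Nrf2 3, smaller levels could not be resolved.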

Other observations

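Genes next to the members on the chromosome, listed after the values were seen, differed in few cases. Rbp4, the plasma retinol carrier, lies 7500 bases from Pde6c and was at 2.44 ± 1.33 CPM (SD, n = 7) in control eyes and 13.03 ± 6.28 CPM in Nrf2 eyes, a log2 fold change of 2.53 (SE 0.39, edgeR adjusted p = 0.0146), while Pde6c itself was lower in fit. Coa5, a mitochondrial assembly factor and a neighbour of Cnga3, was higher by 0.58 (SE 0.10, edgeR adjusted p = 0.0191). Tex28, 184 bases from Opn1mw, was at 1.16 CPM in control eyes and 0.0169 CPM in Nrf2 eyes and was too low to be tested. Ccdc136, 7841 bases from Opn1sw, was at 43.6 ± 34.2 CPM in control eyes and 18.9 ± 3.55 CPM in Nrf2 eyes, a log2 fold change of -0.73 (SE 0.35, edgeR adjusted p = 0.316). Calu, Pdzd11 and Gnai3, neighbours of Opn1sw, Arr3 and Gnat2, had log2 fold changes of 0.16, 0.07 and -0.02, none past the threshold.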
